A study of Mus musculus with 20 samples.

Results

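The replication-dependent histone genes encode the linker histone H1 and the core histones H2A, H2B, H3 and H4 that package newly made DNA. They were taken as the gene IDs of the count table whose mouse symbol or alias begins with Hist1h, Hist2h, Hist3h or Hist4h and which are not pseudogenes, with 10 or more counts in 2 or more libraries. This gave 61 genes out of 23373 gene IDs. Of the 67 histone genes in the table that are not pseudogenes, 6 were below the minimum, namely Hist2h4, Hist2h2bb, Hist1h1b, Hist3h2ba, Hist1h1t and Hist1h2aa. The last member inside the minimum was Hist1h1a, with 90 counts in all, and just outside it was Hist1h1b, with 99 counts but 10 or more in 1 library only. The members were 4 H1, 17 H2A, 16 H2B, 12 H3 and 12 H4 genes, of which 51 lie in the large Hist1 cluster on chromosome 13, 8 in the Hist2 cluster on chromosome 3, 1 on chromosome 11 and 1 on chromosome 6.

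Most cellular mRNAs end in a poly(A) tail, whereas replication-dependent histone mRNAs end in a short stem-loop. A dedicated machinery cleaves the pre-mRNA just downstream of it, and the stem-loop binding protein SLBP binds it. The genes have no introns as a rule, and their mRNAs accumulate in S phase, when histone supply has to match DNA synthesis, and are degraded when replication stops. Variant histones such as H2A.Z are made throughout the cell cycle from ordinary polyadenylated mRNAs and can replace the replicative forms. Several replicative histone genes can also make longer, polyadenylated transcripts past the stem-loop.

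The study asked how long growth with hexavalent chromium, Cr(VI), a carcinogenic metal ion, changes gene expression in Hepa-1 cells and their response to benzo[a]pyrene (B[a]P), a combustion product that activates the aryl hydrocarbon receptor. Hepa-1 is a mouse hepatoma line, here grown in a-MEM with serum and passaged every 3 days. RNA from 20 libraries in 10 groups of 2 was sequenced. At passage 20 the cells were control-grown or had been grown for 20 passages with Cr(VI), and each was given the solvent DMSO or B[a]P for 8 hours. At passage 25 the cells were control-grown, grown for 25 passages with Cr(VI), or recovered, meaning 20 passages with Cr(VI) followed by 5 without it, and each was again given DMSO or B[a]P for 8 hours. Passage counts follow the passage label, although titles of the passage 25 samples hold a 27. The doses are given as labelled, 0.5 mM Cr(VI) and 5 mM B[a]P, although the title calls the Cr(VI) concentrations low. All groups come from the same line, and nothing in the labels says whether the 2 libraries of a group came from separate cultures, so a p-value here reflects the spread between libraries, which may be technical.

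Total counts were between 20976045 and 37930720 per library. The 100 most abundant genes took 16.7 to 22.1% of the counts in 7 passage 20 libraries and 25.4% in the eighth, replicate 2 of the Cr(VI)-grown DMSO group. At passage 25 they took 15.7 to 26.0% in the libraries numbered 1 and 29.6 to 34.3% in those numbered 2, which stood apart for most genes. Of 10 hepatocyte markers, Alb (826 to 5700 CPM, counts scaled to a common library size), Trf (517 to 2820 CPM) and Afp (102 to 334 CPM) were abundant, and Fgb (1.86 to 22.1 CPM) and Apoa2 (0.981 to 13.8 CPM) were low. Hnf4a, Apoa1 and Ahsg were near 0, with at most 0.394, 0.0687 and 0.359 CPM in any library, and Ttr and Serpina1a reached at most 1.83 and 1.7 CPM. Of other cell types, the fibroblast markers Dcn (611 CPM), Col1a1 (339 CPM) and Pdgfrb (71.3 CPM) were also present, with Col3a1 at 2.08 CPM. The macrophage markers Csf1r and Cd68 were at 35.7 and 6.08 CPM, whereas Adgre1 was at 0.272, Ptprc at 0.0285 and the endothelial marker Pecam1 at 0.383 CPM.

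The stem-loop is the feature that sets these mRNAs apart, and it is shown here for members of all 5 families because it takes the place of the poly(A) tail. In GENCODE M21 (GRCm38), the 100 bases after the stop codon were searched in the sense of the mRNA for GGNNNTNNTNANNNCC with 6 paired bases in the stem. Each line gives the 16 letters of the loop in capitals between 7 flanking bases.
Hist1h1c: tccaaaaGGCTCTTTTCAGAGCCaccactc
Hist2h2aa1: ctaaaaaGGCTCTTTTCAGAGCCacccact
Hist1h2bk: caccaaaGGCTCTTTTAAGAGCCactaaac
Hist1h3b: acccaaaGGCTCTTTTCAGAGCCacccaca
Hist1h3g: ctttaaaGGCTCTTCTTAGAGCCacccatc
Hist1h4c: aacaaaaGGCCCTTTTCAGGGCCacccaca
Hist1h4j: ccctaaaGGTCCTTTTCAGGACCaccacat
Hist4h4: ccacaaaGGCCCTTTTCAGGGCCcacaaag

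Of 48 members with at least 40 annotated bases after the stop codon, 43 held such a loop, and so did 19 of 20734 other protein-coding genes (0.092%). The loop began 21 to 58 bases after the stop codon, with a median of 31. The form shown for Hist1h1c, Hist2h2aa1 and Hist1h3b was the commonest, with 25 members, and the form shown for Hist1h4c and Hist4h4 was found in 7. The other 5 members with enough sequence had no match, namely Hist1h1a, Hist1h2bc, Hist1h2bq, Hist1h2br and Hist2h2be, which says only that these letters are not in the window. In 17 members an annotated transcript ran over 300 bases past the loop, the longest being 4884 bases in Hist1h1d, and in 23 members a transcript ended within 100 bases of it.

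The members of a core family are near copies of one another, which limits what a count for 1 gene means. The next lines show, for each core family, a run of 50 coding bases that most of its members hold unchanged, named by 1 of the genes that hold it and given in lower case throughout.
H2A, as in Hist1h2ab: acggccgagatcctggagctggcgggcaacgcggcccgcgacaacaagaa
H2B, as in Hist1h2ba: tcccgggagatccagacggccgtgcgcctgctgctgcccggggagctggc
H3, as in Hist1h3a: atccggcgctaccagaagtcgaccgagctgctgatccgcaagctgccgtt
H4, as in Hist1h4a: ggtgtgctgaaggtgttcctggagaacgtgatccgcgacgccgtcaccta

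The H2A run was in 16 of 17 members, the H2B run in 15 of 16, the H3 run in 12 of 12 and the H4 run in 11 of 12. Over whole coding sequences, the median share of 50-base runs found in another member was 85% in H2A, 81.5% in H2B, 85.4% in H3, 71.7% in H4 and 23.7% in H1. In 12 members every run was shared, and 3 members, Hist1h1a, Hist2h2be and Hist4h4, had none. How reads that fit several genes were counted is not given in the sources used here. Hist1h2bq and Hist1h2br had the same count in all 20 libraries, and 4 pairs of genes agreed within 2% in every library. Hist1h2ao had 1.95 to 2.05 times the count of Hist1h2ah in each. The counts of Hist1h2bq, Hist1h2br, Hist1h2ao and Hist1h2ap were even numbers in all 20 libraries. Whether reads that fit several of these genes were added more than once was not tested. Joining genes that share at least 50% of the runs of the shorter one leaves 22 groups, of which 15 hold 1 gene and the largest hold 13 H2B, 11 H2A and 9 H3 genes. In 12 of those 15, the gene still shares some runs, up to 71.2% in Hist1h4i. A count over members is therefore not a count of independent genes, and single core histone genes are reported as uncertain.

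Levels were compared between genes as mean CPM per kilobase of coding sequence, with library totals scaled by the trimmed mean of M values (TMM). H2A genes had a median of 42.4 on this scale and H2B genes 18.02, against 6.27 for H3 and 4.53 for H4. The H1 genes spread most, from 0.251 for Hist1h1a to 109 for Hist1h1c, the most abundant member on this scale. The highest H2A gene was Hist2h2aa2 at 100.2, the highest H2B gene Hist1h2bq at 51.8, the highest H3 gene Hist2h3c1 at 9.87 and the highest H4 gene Hist4h4 at 10.97. Hist1h2br, with the same counts as Hist1h2bq, was level with it, and Hist2h2aa1 was at 99.98. Shared reads enter these levels, so ranks and medians within the core families are uncertain. They describe what the libraries captured, since mRNAs without a poly(A) tail may be caught unequally. The RNA selection is not given in the sources used here.

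Linker histones sit where DNA enters and leaves the nucleosome and compact chromatin. The 3 abundant H1 genes lie in the Hist1 cluster, Hist1h1c at chr13:23738807-23739531, Hist1h1d at chr13:23555032-23555807 and Hist1h1e at chr13:23621777-23622558 (RefSeq, GRCm38.p6). They share 22.0, 26.6 and 25.5% of their 50-base runs with another member. The bases directly before their RefSeq start sites are printed as a description, with the H1 box AAACACA and the CCAAT box in capitals. Whether these boxes bear on the levels was not tested. Each interval and strand is given beside the name.
Hist1h1c (chr13:23738682-23738806, plus): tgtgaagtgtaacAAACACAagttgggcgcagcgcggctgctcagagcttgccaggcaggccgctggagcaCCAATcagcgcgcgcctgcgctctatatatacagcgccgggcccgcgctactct
Hist1h1d (chr13:23554907-23555031, plus): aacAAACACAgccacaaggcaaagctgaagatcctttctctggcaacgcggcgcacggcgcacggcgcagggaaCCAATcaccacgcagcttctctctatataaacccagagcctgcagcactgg
Hist1h1e (chr13:23622559-23622683, minus): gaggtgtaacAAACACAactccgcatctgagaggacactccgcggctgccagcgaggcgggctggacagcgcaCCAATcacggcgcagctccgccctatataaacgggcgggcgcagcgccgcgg

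Both boxes were present in the same order in all 3, with 51, 64 and 56 bases between them in Hist1h1c, Hist1h1d and Hist1h1e. A RefSeq promoter window, 250 bases before to 50 after the start, was at hand for 57 members, and both strands were searched. AAACACA was in 3 of 4 H1 windows, in 10.5% of all member windows and in 7.14% of all 27025 windows. CCAAT was in 84.2% of member windows against 37.9% of all, and in H4 in only 3 of 12. TATAAA, which can overlap AAACACA by 3 letters, was in 56.1% against 14.2%. ATTTGCAT, the octamer known from H2B promoters, was in 19.3% against 1.75%, with 6 of 17 H2A windows, 5 of 14 H2B windows and none of the H1, H3 or H4 windows. A match is a description of these letters and not a bound site.

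At passage 20 the 3 abundant linker histone genes were lower in the Cr(VI)-grown libraries than in the control-grown ones, to about 0.39 of the control level for Hist1h1c under DMSO. The control-grown libraries had 104.3 and 107.6 CPM of Hist1h1c with DMSO and 135.8 and 144.9 with B[a]P, and the Cr(VI)-grown libraries had 37.5 and 45.1 with DMSO and 46.7 and 54.5 with B[a]P. Hist1h1d was at 7.61, 8.17, 10.6 and 9.93 CPM in the control-grown and, in the same order, at 3.45, 2.28, 3.30 and 4.08 CPM in those with Cr(VI). Hist1h1e was at 6.67, 7.52, 8.95 and 8.72 CPM against 3.07, 2.03, 2.95 and 3.30 CPM. For each gene the lowest control-grown library lay above the highest Cr(VI)-grown library. Hist1h1a had at most 0.457 CPM in any library.

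The test of this difference depended on how the spread was estimated. Under DMSO alone, the log2 difference was -1.36 ± 0.32 (SE) for Hist1h1c, -1.46 ± 0.38 for Hist1h1d and -1.47 ± 0.37 for Hist1h1e, each with an adjusted p of 0.523 (edgeR quasi-likelihood test, Benjamini-Hochberg adjustment over 14343 genes, n = 2 per group). Under B[a]P the differences were -1.47 ± 0.33, -1.47 ± 0.38 and -1.50 ± 0.36. Averaged over DMSO and B[a]P, a comparison chosen after seeing the data, they were -1.42 ± 0.23, -1.47 ± 0.27 and -1.48 ± 0.26, with edgeR adjusted p-values of 0.0694, 0.112 and 0.0917. None passed 0.05 when all 20 libraries set the spread. Fitted on the 8 libraries of passage 20 alone, edgeR gave an adjusted p of 0.0434 for all 3 genes, and DESeq2 on all libraries gave 1.97e-06, 5.62e-06 and 2.24e-06.

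**Figure D1:**
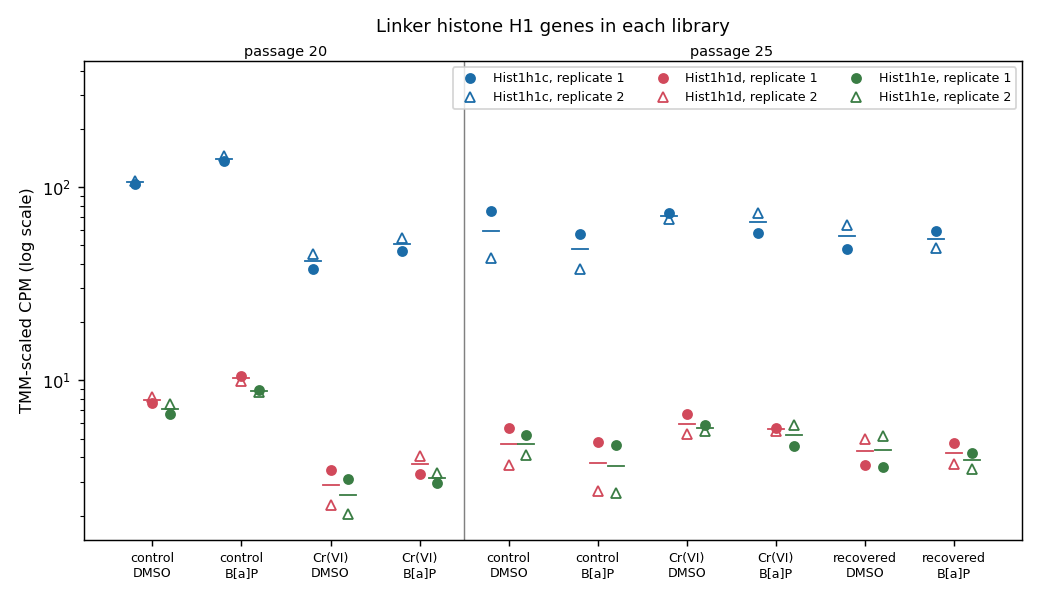
TMM-scaled CPM (log axis) of Hist1h1c, Hist1h1d and Hist1h1e in each of the 20 libraries, by group, with filled circles for replicate 1 and open triangles for replicate 2. At passage 20 all Cr(VI)-grown libraries sit below all control-grown ones, with Hist1h1c between 37.5 and 54.5 against 104.3 to 144.9 CPM, and at passage 25 the groups overlap.

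At passage 25 the groups overlapped for these genes. Hist1h1c was at 75.6 and 43.0 CPM in control-grown cells with DMSO, 57.4 and 37.8 with B[a]P, 73.4 and 68.8 in Cr(VI)-grown cells with DMSO and 58.2 and 73.6 with B[a]P. The recovered libraries had 48.0 and 63.5 CPM with DMSO and 58.9 and 48.6 with B[a]P, within the range of the control-grown ones. The Cr(VI) difference averaged over both treatments was 0.37 ± 0.23 for Hist1h1c, 0.46 ± 0.26 for Hist1h1d and 0.40 ± 0.25 for Hist1h1e (edgeR adjusted p = 1). The change of the Cr(VI) difference from passage 20 to 25 was 1.78 ± 0.32, 1.93 ± 0.37 and 1.89 ± 0.36 on the log2 scale. Its edgeR adjusted p was 0.875 for each, and DESeq2 gave 0.000239 for each.

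As a list, the members did not stand out at passage 20 in how many separated the growth histories. All 4 Cr(VI)-grown libraries lay below all 4 control-grown ones for 3 of 61 members, the linker genes just described, and for 5.1% of all genes. They lay above for 2 of 61, Hist1h4d and Hist4h4, and for 5.49% of all genes. These names were set by their values and are given as a description. H1f0, the replacement linker histone with a polyadenylated mRNA, was at 136.8 and 144.1 CPM in control-grown and 77.6 and 75.8 CPM in Cr(VI)-grown cells with DMSO, and at 76.1, 74.5, 53.9 and 56.8 CPM with B[a]P, a log2 Cr(VI) difference of -0.66 averaged over both (edgeR adjusted p = 0.293). The summed S-phase list was at 2200 to 2530 CPM without Cr(VI) and 2150 to 2290 CPM with it. Its part in the linker difference was not tested, and in such bulk RNA, fewer cells in S phase and less histone mRNA per cell cannot be told apart.

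The core histone families had other values than H1 in the same comparison. Between Cr(VI)-grown and control-grown cells under DMSO at passage 20, the family medians of the log2 difference were -1.41 for H1, -0.04 for H2B, 0.92 for H2A, 1.00 for H3 and 1.31 for H4, with 0.01 over all genes. None of 61 members was called by edgeR at adjusted p under 0.05, as was true of all genes (0%), while DESeq2 called 3, the linker genes, beside 0.363% of all genes. Without adjustment, edgeR gave p under 0.05 for 7 members, beside 6.32% of all genes. Hist2h2aa1, Hist2h2aa2, Hist1h4c and Hist1h4h were higher and Hist1h1c, Hist1h1d and Hist1h1e lower. Averaged over DMSO and B[a]P, none was called by edgeR (0% of all genes), 5 had an unadjusted p under 0.05 beside 8.99% of all genes, and DESeq2 called the 3 linker genes, beside 1.37%.

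The core histone part of that difference rested on 1 library. Hist1h2ao, an H2A gene whose counts cannot be separated from those of its copies, was at 22.0 and 20.9 CPM in control-grown and at 17.8 and 61.5 CPM in Cr(VI)-grown cells with DMSO. Hist2h2aa2 was at 24.0 and 24.8 CPM against 25.9 and 87.0 CPM. Hist1h3h was at 1.10 and 1.66 CPM against 1.59 and 3.90 CPM. In each case only replicate 2 of the Cr(VI)-grown DMSO group was clearly high, and without it the median over members went from 0.89 to -0.23. That library also had 7.34 CPM of Rmrp and 8.38 CPM of Rpph1, RNAs of the RNase MRP and RNase P enzymes that carry no poly(A) tail, against at most 1.35 and 2.06 CPM in the other 7 libraries of passage 20. Rpph1 was at 0.197 to 0.413 CPM in the control-grown and 0.716 to 8.38 CPM in the Cr(VI)-grown libraries of passage 20. The part of these RNAs in the H1 and core histone differences was not tested.

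With B[a]P in place of DMSO, the family medians of the Cr(VI) difference at passage 20 were -1.49 for H1, -0.02 for H2A, -0.27 for H2B, -0.01 for H3 and 0.43 for H4. No member was called by edgeR (0% of all genes). An unadjusted p under 0.05 was found for 3, beside 1.91% of all genes, and 2 were called by DESeq2, Hist1h1c and Hist1h1e, beside 0.0279%. The members' median was between -0.25 and 0.18 when 1 library was left out.

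**Figure D2:**
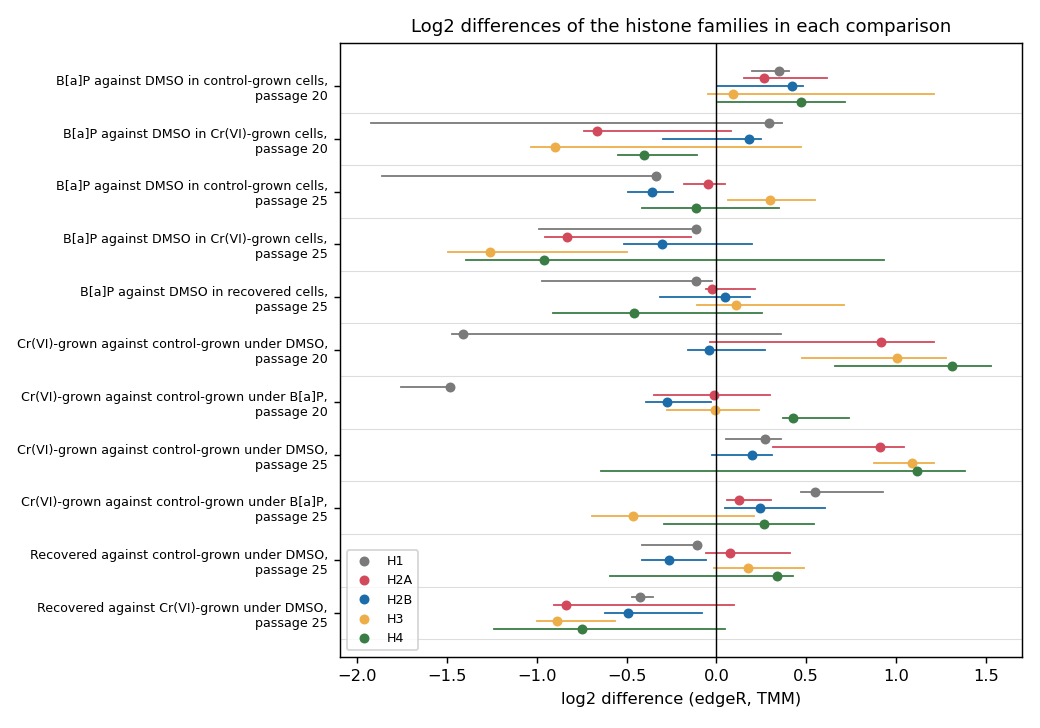
Log2 differences (x axis) of the 5 families in 11 comparisons (y axis), with the median of a family as a point and the lowest to highest member as a line. H1 has medians of -1.41 and -1.49 for Cr(VI) at passage 20, while H2A, H3 and H4 have positive medians of 0.91 to 1.12 for Cr(VI) under DMSO at passage 25.

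In control-grown cells at passage 20, differences between B[a]P and DMSO were small and mostly positive. The members' median log2 difference was 0.38, with 60 of 61 positive, against 0.02 over all genes, and the family medians ran from 0.09 for H3 to 0.47 for H4. No member was called by edgeR, beside 1.23% of all genes, though for 2 the unadjusted p was under 0.05 (10% of all genes), and DESeq2 called Hist2h3c1 (4.06% of all genes). These 2 were Hist2h3c1 (chr3:96246685-96247348) and Hist2h3c2, H3 genes of the Hist2 cluster that share reads with Hist2h3b. Hist2h3c1 was at 2.76 and 3.72 CPM with DMSO and 7.72 and 7.32 CPM with B[a]P, and Hist2h3c2 at 2.13 and 2.54 against 4.66 and 5.26 CPM. The log2 differences were 1.21 ± 0.39 and 1.09 ± 0.44 (edgeR adjusted p = 0.211 and 0.376). Both genes were named for their p-values here, and 100% of the 50-base runs of each occur in another member, so they are not separate results. On the passage 20 libraries alone, edgeR gave adjusted p-values of 0.0211 and 0.0376. Their neighbour Hist2h3b was at 0.868 and 1.75 CPM with DMSO and 2.28 and 2.40 CPM with B[a]P.

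In the other cells the B[a]P difference of Hist2h3c1 had smaller values. The log2 differences were 0.47 ± 0.39 in Cr(VI)-grown cells at passage 20, 0.22 ± 0.39 in control-grown, -0.50 ± 0.39 in Cr(VI)-grown and 0.71 ± 0.39 in recovered cells at passage 25. In recovered cells the 2 libraries with B[a]P were at 6.04 and 2.82 CPM, against 2.73 and 2.69 CPM with DMSO, so replicate 1 alone was high. None of these had an edgeR adjusted p under 0.97. The difference of the B[a]P response between Cr(VI)-grown and control-grown cells at passage 20 was -0.74 ± 0.55 (edgeR adjusted p = 1).

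For the other B[a]P comparisons no member was called by edgeR with all libraries in 1 fit, and none had an unadjusted p under 0.05 or was called by DESeq2. In Cr(VI)-grown cells at passage 20 (0.0418% of all genes called) the members' median was -0.38, with -0.67 for H2A, -0.90 for H3, -0.40 for H4, 0.18 for H2B and 0.29 for H1. The high replicate 2 of the DMSO group enters here as well, and without it the median was 0.55. In control-grown cells at passage 25 (0.0488% called) the median was -0.07, or -0.32 to 0.31 with 1 library left out. In recovered cells (0.0558% called) it was -0.02, or -0.79 to 0.41. In Cr(VI)-grown cells at passage 25 (0.0558% called) the median was -0.83, with 59 of 61 negative. It was -1.47 without replicate 2 of the B[a]P group, -0.42 without replicate 2 of the DMSO group and -0.45 without replicate 1 of the B[a]P group. Here and below, leaving out 1 passage 25 library, done without a replicate block, leaves unequal replicate numbers in the groups compared. Such medians therefore also hold the difference between the replicate numbers.

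At passage 25 libraries of the same number deviated together, so each comparison there was also fitted with the replicate number as a block. In Cr(VI)-grown cells with the block, 6 of 61 members were lower with B[a]P and none higher at an edgeR adjusted p under 0.05, beside 5.45% of all genes. They were Hist1h3h, Hist1h3b, Hist1h3i, Hist1h3f and Hist1h3g, which share reads with one another, and Hist1h4d. Hist1h3h (chr13:21717628-21718115) was at 4.73 and 9.01 CPM with DMSO and at 1.19 and 4.34 CPM with B[a]P, lower with B[a]P within each replicate number. Its log2 difference was -1.56 ± 0.39 with the block (edgeR adjusted p = 0.036) and -1.32 ± 0.96 without it (adjusted p = 0.97). Without the block, leaving out 1 of the 4 libraries moved it between -2.52 and -0.66. Hist1h4d was at 1.16 and 2.86 CPM with DMSO and 0.457 and 1.08 CPM with B[a]P. In the same blocked fit 3 of 20 S-phase genes were lower and none higher, Mcm2 (-0.80 ± 0.21), Mcm5 (-1.29 ± 0.34) and Gins2 (-0.97 ± 0.27), and so was Rmrp (-2.59 ± 0.70). The part of these genes in the H3 difference was not tested.

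The tests of whether B[a]P responses differ gave no calls among the members or among all genes with edgeR (0% each), no member at an unadjusted p under 0.05 and none by DESeq2. The median difference of the response in Cr(VI)-grown minus control-grown cells was -0.82 at passage 20 and -0.72 at passage 25, and that of passage 25 minus passage 20 in control-grown cells was -0.55. The passage 20 value turned to 0.23 without replicate 2 of the Cr(VI)-grown DMSO group. Leaving out 1 library moved the passage 25 value between -1.28 and -0.26 and the last one between -0.69 and -0.18. These comparisons share libraries with the ones above.

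At passage 25 the median of each core histone family was highest in Cr(VI)-grown cells with DMSO, whichever replicate number is read. The median H2A gene was at 21.9 CPM in replicate 1 and 37.3 CPM in replicate 2 of that group. Single core genes could lie otherwise. In replicate 1 of that group Hist4h4 was at 2.73 CPM, against 6.81 CPM in Cr(VI)-grown cells with B[a]P. Hist3h2a was at 10.5 CPM there, against 16.8 CPM in replicate 1 of recovered cells with B[a]P. Against control-grown cells under DMSO the members' median was 0.91, with 59 of 61 positive, and -0.10 over all genes. It was 0.46 without replicate 2 of the Cr(VI)-grown group, 0.55 without replicate 1 of the control-grown group and 1.39 without replicate 2 of the latter. The family medians were 0.91 for H2A, 1.09 for H3, 1.12 for H4, 0.20 for H2B and 0.27 for H1. No member was called by edgeR (0% of all genes) or DESeq2, and 2, Hist2h3c1 and Hist2h3c2, had an unadjusted p under 0.05, beside 1.06% of all genes. In the fit blocked by replicate number, 33 members reached an unadjusted p under 0.05, beside 17.9% of all genes, and again none was called. These 2 libraries also had the highest Rmrp of their replicate number, 3.65 and 13.9 CPM, and the largest shares in the 100 most abundant genes, 26.0 and 34.3%, and the part of either was not tested.

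With B[a]P the same growth comparison gave a median of 0.15 (-0.24 to 0.26 with 1 library left out), with no member called (0% of all genes), none at an unadjusted p under 0.05 and none by DESeq2. Averaged over DMSO and B[a]P no member was called either (0%), none reached an unadjusted p under 0.05, and none was called by DESeq2. The change of the Cr(VI) difference between passages was called for no member by edgeR (0%), had an unadjusted p under 0.05 for 3 (2.52% of all genes), and was called for those linker genes by DESeq2 (0.0488%).

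With DMSO, the median H2A gene differed between recovered and control-grown cells in opposite directions by replicate number. In number 1 the recovered library had 9.32 CPM and the control-grown one 11.2 CPM, and in number 2 they had 23.7 and 20.3 CPM. The members' median difference was 0.07, or -0.47 to 0.60 with 1 library left out, with no member called by edgeR (0% of all genes), none at an unadjusted p under 0.05 and none by DESeq2. With B[a]P no member was called by edgeR (0%) or DESeq2 and 1 had an unadjusted p under 0.05 (0.99% of all genes), Hist2h3c1, at 0.85 ± 0.39. Against Cr(VI)-grown cells under DMSO the median was -0.70, with 59 of 61 negative, no member called by edgeR (0%) or DESeq2 and none at an unadjusted p under 0.05. This median was -1.46 without replicate 2 and -0.30 without replicate 1 of the recovered group, and -0.40 without replicate 2 of the Cr(VI)-grown group. Blocked by replicate number, 26 members reached an unadjusted p under 0.05 there, beside 12.9% of all genes, and none was called. The comparison shares the Cr(VI)-grown DMSO libraries with the one above.

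The largest differences among these genes at passage 25 were between the libraries numbered 1 and those numbered 2. Hist1h3h was at 1.32, 2.64, 4.73, 1.19, 1.36 and 1.06 CPM in the libraries numbered 1 (control-grown, Cr(VI)-grown and recovered, each with DMSO and then B[a]P) and at 5.03, 5.14, 9.01, 4.34, 5.83 and 6.62 CPM in those numbered 2. Hist1h2ao was at 22.8, 24.9, 44.5, 18.2, 18.5 and 16.03 CPM against 41.5, 37.4, 76.5, 48.5, 48.9 and 48.7 CPM. In every group the library numbered 2 was higher for both genes, and the 2 sets overlapped only through the Cr(VI)-grown DMSO library numbered 1.

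Family by family, the 2 sets of libraries differed unequally. The median log2 difference, number 2 over number 1, was 1.65 for H3, 1.10 for H2A, 0.84 for H4, -0.14 for H1 and -0.23 for H2B, and -0.12 over all genes. Scaling by total counts instead moved the median of all genes to -0.77. The H2A, H3 and H4 medians stayed positive under TMM, upper-quartile, total-count and DESeq2 scaling, and relative to all genes they were 1.22, 1.77 and 0.96 with TMM. By edgeR, 34 of 61 members were higher and 5 lower in the libraries numbered 2, and 76.5% of all genes were called, so the share called is not particular to the histones. The higher ones were 13 H2A, 10 H3 and 11 H4 genes, and with total-count scaling the split was 19 higher and 22 lower.

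The largest H3 difference was 1.74 ± 0.29 for Hist1h3e (edgeR adjusted p = 9.96e-05), and Hist1h3f, Hist1h3h, Hist1h3c and Hist1h3a followed at 1.73, 1.70, 1.69 and 1.68. Hist1h2ao differed by 1.11 ± 0.21 (adjusted p = 0.00031, edgeR). The 5 lower members were Hist4h4 (-0.88 ± 0.21), Hist1h2bc (-0.71 ± 0.16), Hist3h2a (-0.69 ± 0.17), Hist1h2ba (-0.49 ± 0.17) and Hist1h2bh (-0.35 ± 0.15), 3 of them H2B genes. Hist4h4, a solitary H4 gene on chromosome 6 that shares no 50-base run, was at 1.70 to 3.09 CPM in the libraries numbered 2 and at 2.73 to 6.81 CPM in those numbered 1, which overlap. Hist1h1c (-0.17) and Hist2h3c1 (-0.04) did not pass the test, with edgeR adjusted p-values of 0.302 and 0.883.

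**Figure D3:**
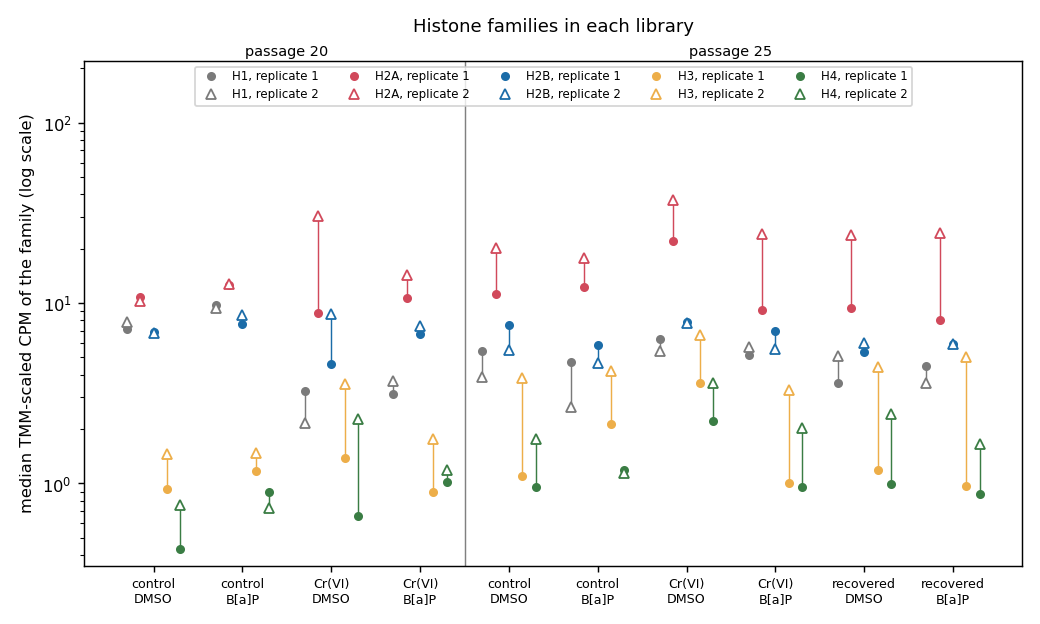
Median TMM-scaled CPM (log axis) of each histone family in the 20 libraries, by group, with filled circles for replicate 1, open triangles for replicate 2 and a line joining them. At passage 25 the H2A and H3 triangles lie above their circles in all 6 groups, whereas H2B values lie close together, and at passage 20 the gap is wide in the Cr(VI)-grown DMSO group (H2A 30.3 in replicate 2).

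H2A, H3 and H4 genes were also high in 1 library at passage 20. The median H2A gene was at 8.85 to 14.3 CPM in 7 libraries of that passage and at 30.3 CPM in replicate 2 of the Cr(VI)-grown DMSO group. The median H3 gene was at 0.893 to 1.77 CPM in the 7 and at 3.55 CPM in that library, and the median H4 gene at 0.434 to 1.19 and 2.28 CPM. The median H2B gene was at 4.58 to 8.60 and 8.67 CPM, and H1 was low there at 2.16 CPM. The families were ordered otherwise than at passage 25, since the median log2 difference, replicate 2 over 1 of that group, was 1.75 for H2A, 1.21 for H4, 1.08 for H3 and 0.86 for H2B. Hist1h2bc (0.80), Hist3h2a (0.76) and Hist4h4 (0.47), lower in the passage 25 libraries numbered 2, were higher in that replicate 2. Over all genes, 25.4% differed by more than 2-fold between the replicates of that group, against 0.0627 to 0.272% in the other passage 20 groups and 14.6 to 48.5% at passage 25.

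H2A and H2B genes are arranged head to head and transcribed in opposite directions from a shared intergenic stretch, and the 2 proteins form a dimer. There were 11 such pairs among the members, with 278 to 334 bases between the coding sequences. The 3 pairs named here, chosen by their summed level and taking Hist1h2ao with Hist1h2bq for its duplicate Hist1h2ap with Hist1h2br, lie on chr13. The stretch between Hist1h2bq and Hist1h2ao is chr13:21810172-21810466, that between Hist1h2ac and Hist1h2bc chr13:23683918-23684231 and that between Hist1h2ah and Hist1h2bk chr13:22035553-22035886.

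Within a pair, the ratio of the H2A count to the H2B count does not depend on library scaling. Hist1h2ao over Hist1h2bq was 0.936 to 1.38 in the 7 ordinary passage 20 libraries, 2.61 in replicate 2 of the Cr(VI)-grown DMSO group, 0.747 to 1.8 in the passage 25 libraries numbered 1 and 2.65 to 3.61 in those numbered 2. Hist1h2ac over Hist1h2bc was 0.585 to 0.835, 1.60, 0.499 to 1.27 and 1.92 to 2.65 in the same order. Hist1h2ah over Hist1h2bk was 1.16 to 1.8, 3.31, 1.17 to 2.22 and 3.02 to 3.93. For all 3 pairs the libraries numbered 2 did not overlap with those numbered 1, and both H2A and H2B members share reads with other genes. Of the 11 pairs, 10 did not overlap in this way, where 76.5% of all genes were called between the same libraries. The H2B genes of these 10 form part of 1 read-sharing group, and so do their H2A genes apart from Hist1h2ak. The 10 are therefore not separate results. The remaining pair was Hist2h2ac over Hist2h2be, an H2B gene that shares no 50-base run. It was at 0.599 to 1.15 in the libraries numbered 1 and 0.591 to 1.53 in those numbered 2. In the 10 pairs the 2 counts differed unequally between these libraries, which does not show that either gene stayed the same.

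**Figure D4:**
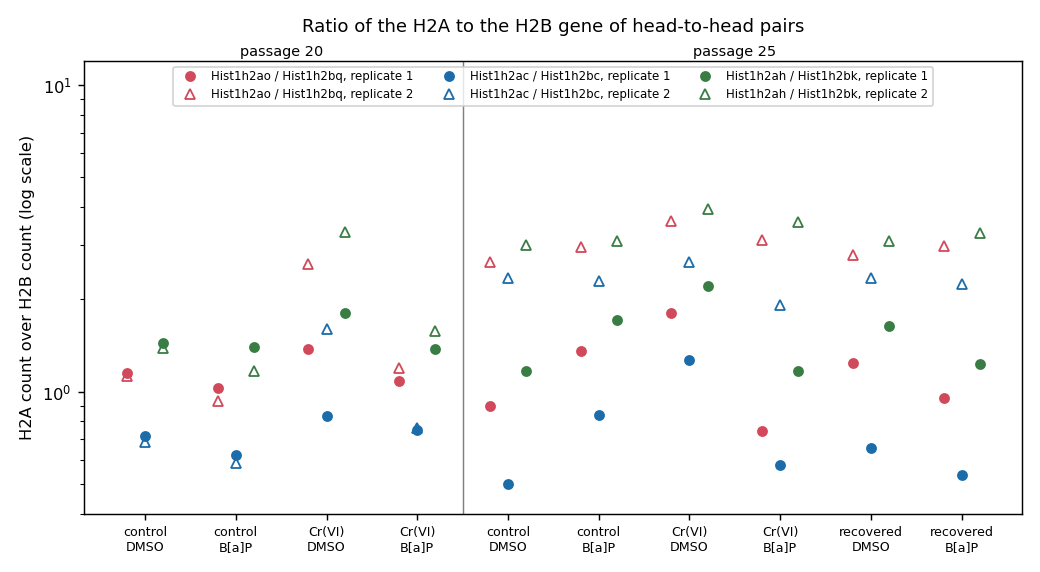
Ratio of the H2A to the H2B gene (log axis) for 3 head-to-head pairs in the 20 libraries, by group, with filled circles for replicate 1 and open triangles for replicate 2. Hist1h2ao over Hist1h2bq lies between 2.65 and 3.61 in the passage 25 libraries numbered 2 and at 2.61 in replicate 2 of the passage 20 Cr(VI)-grown DMSO group, and between 0.747 and 1.8 elsewhere.

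Across all members, the differences between replicate numbers ran with the GC content of the coding sequences, but not within every family. Median GC was 69.5% in H2A, 67.4% in H3, 65.7% in H4, 63.2% in H2B and 62.2% in H1, against 53.1% over 13308 tested genes with a coding sequence (92.8%). Across the 61 members, GC content and the passage 25 difference had Pearson's r of 0.643 and Spearman's rho of 0.693, across the 22 read-sharing groups 0.534 and 0.627, and across all 13308 genes 0.537 and 0.547. For replicate 2 over 1 in the Cr(VI)-grown DMSO group of passage 20, the members gave 0.608 and 0.649 and all genes 0.349 and 0.364. These are descriptions across genes, which share the same libraries and, in the core families, reads. Within H3, Hist2h3b, Hist2h3c1 and Hist2h3c2 had the highest GC, 69.6 to 69.9%, and passage 25 differences of 0.87, -0.04 and 0.43. The Hist1h3 genes, at 67.2 to 67.9%, differed by 1.58 to 1.74. Within H2B, Hist2h2be (57.1%), Hist1h2ba (58.5%) and Hist1h2bb (60.3%) differed by 0.04, -0.49 and 0.05. Hist1h2bq (63.8%) and Hist1h2bc (64.0%), with the highest GC there, differed by -0.32 and -0.71. Genes over 65% GC had a median difference of 0.49 at passage 25 (n = 317), those of 60 to 65% 0.63 (n = 1313) and those under 45% -1.82. The H3 median of 1.65 lay above the middle 50% of genes over 65% GC (-0.64 to 1.11), and the H2A median of 1.10 lay within it. The H2B median of -0.23 lay just below the middle 50% of genes of 60 to 65% GC (-0.16 to 1.16), and the H1 median of -0.14 at its lower edge.

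**Figure D5:**
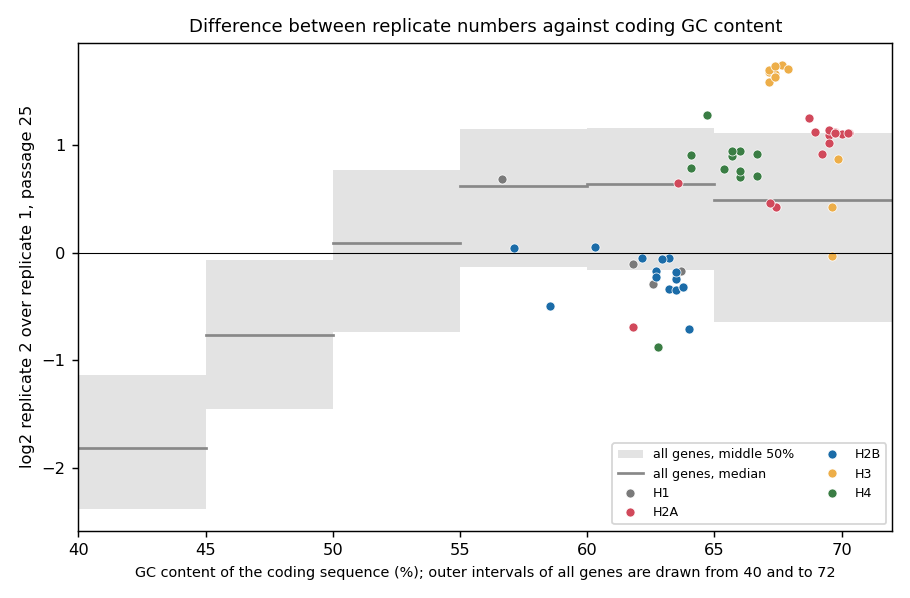
Log2 difference between passage 25 libraries numbered 2 and 1 (y axis) against GC content of the coding sequence in % (x axis), with 1 point per histone gene and grey bands for the middle 50% and the median of all tested genes in each GC interval. Most H2A and H3 genes lie above the grey median of their interval, which is 0.49 over 65% GC.

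Other genes of histone biology moved with the same libraries. Slbp, which binds the stem-loop, was at 25.1 to 44.9 CPM in the passage 25 libraries numbered 1 and at 15.1 to 18.9 CPM in those numbered 2, without overlap. Npat, a coactivator of histone gene transcription, was at 17.8 to 32.0 against 3.5 to 8.03 CPM, and Casp8ap2, known from the same nuclear bodies, at 24.2 to 48.5 against 3.27 to 8.23 CPM. Eri1, an exonuclease that acts on the stem-loop, was at 38.8 to 60.8 against 18.1 to 25.4 CPM. So 4 genes of histone mRNA supply and turnover were lower in the libraries where H2A, H3 and H4 were higher, and they were picked for these ranges. Other genes of the same list lay the other way, also without overlap. Lsm10 was at 11.9 to 22.2 against 29.6 to 43.4 CPM and Lsm11 at 14.1 to 23.4 against 26.15 to 40.5 CPM. Cpsf3 was at 22.0 to 35.7 against 47.5 to 61.35 CPM and Sympk at 96.75 to 180 against 285 to 382 CPM. No common direction is read from the list.

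Of the whole list of 15 genes for histone mRNA processing and transcription, 6 were higher and 5 lower in the libraries numbered 2 by edgeR, beside 76.5% of all genes called, with a median of -0.16, and its most abundant genes were Srrt (253 CPM), Sympk (207), Ncbp1 (129) and Ncbp2 (68.8). Of 11 replacement and variant histones, 7 were higher and 2 lower, beside the same 76.5%. H3f3b, which makes the replacement H3.3, was at 596 to 1010 CPM against 347 to 407 CPM, H2afj at 153 to 644 against 616 to 1510 CPM, and H2afz and H3f3a had means of 541 and 245 CPM. Of 8 chaperones and acetyltransferase genes, 4 were higher and 3 lower (76.5% of all genes called), and Chaf1a (114 CPM), Ipo4 (110), Chaf1b (94.6) and Nasp (67.3) were the most abundant.

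Of 20 S-phase genes, 12 were higher and 5 lower in the libraries numbered 2 by edgeR, again beside 76.5% of all genes called. Mcm5, part of the replicative helicase, was at 87.2 to 355 CPM in the libraries numbered 1 and 438 to 766 CPM in those numbered 2, whereas Pcna, the polymerase clamp, was at 184 to 347 against 110 to 130 CPM. Mcm7, Mcm3 and Rrm1 had means of 410, 287 and 224 CPM. Of 19 RNAs listed as lacking a poly(A) tail, 14 were in the table and 5 were tested, with 2 higher and 2 lower (76.5% of all genes). Rmrp was at 0.282 to 3.65 against 3.53 to 13.9 CPM and Rpph1 at 0.219 to 3.89 against 2.18 to 11.4 CPM, while Malat1 was at 66.0 to 339 against 8.76 to 14.4 CPM and Neat1 averaged 48.8 CPM. Rmrp and Rpph1 were thus mostly higher and Malat1 lower in the libraries numbered 2. The list was drawn up by name, and whether each RNA lacks a tail in these libraries was not tested.

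Marker lists also differed between the replicate numbers. Of 8 hepatocyte markers tested, 5 were higher and 2 lower in the libraries numbered 2, beside 76.5% of all genes called. Their sum was 1640 to 4530 CPM in number 1, 6150 to 8790 CPM in number 2 and 2060 to 2710 CPM at passage 20. Of 4 fibroblast markers 2 were higher, of 3 macrophage markers 1 was higher and the 1 endothelial marker tested was not called. The part of these genes in the histone differences was not tested. In the 18 comparisons of treatment, growth or passage, edgeR without a block called no gene of any of the 5 gene lists or 4 marker lists.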

How the data were processed

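RNA from 20 Hepa-1 libraries was analysed from the table of raw counts per Entrez gene ID deposited by the authors. Tools listed in the submitters' processing notes are TopHat, CASAVA 1.8, bcl2fastq and DESeq, with build mm10. For the counter, annotation, strand setting and reads that fit several genes, nothing is given in the sources used here. Symbols, coordinates and promoters came from RefSeq GRCm38.p6 (23275 of 23373 IDs matched), and coding sequences and transcripts from GENCODE M21.

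Genes kept by filterByExpr (14343, all 61 members included) were scaled by TMM and tested with edgeR 4.0.16 (quasi-likelihood, 1 mean per group, all 20 libraries, 10 residual degrees of freedom) in R 4.3.3, with Benjamini-Hochberg adjustment over all genes at 0.05. The code was tested on simulated counts with a smaller spread than these data, which checks the code and not its power here. Alternatives were DESeq2 1.42.0, other scalings and filters, a replicate block, and each library left out. The main tests of treatment, growth and passage did not pair libraries. The common dispersion, a measure of spread shared by all genes, was 0.228 without and 0.045 with the block. Only in the block and the test between replicate numbers were samples with the same number taken as paired at passage 25. There the replicate differences of the 6 groups correlated at 0.881 to 0.952 (15 pairs of groups). At passage 20 they correlated at 0.055 to 0.724 and were not taken as pairs.

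Named genes were the 4 with the highest mean CPM in each family and list, up to 5 called in each direction per comparison, and the 3 most abundant H2A and H2B pairs. Others are named as singled out by their values. Members and lists were chosen with earlier results of these data known. The Cr(VI) comparisons under B[a]P, their means with DMSO, the change between passages, total-count scaling and fits of 1 passage alone were added after seeing the data. With 2 libraries per group, mean and SD are replaced by both values.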

Additional observations from a re-analysis of the deposited data

How the results depend on the processing

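Without the replicate block, counts of members called at an edgeR adjusted p under 0.05 were 0 of 61 in each of the 18 comparisons. They moved in these cases. DESeq2 called 1 for B[a]P without Cr(VI), 3 for Cr(VI) growth under DMSO, 2 under B[a]P and 3 for their mean, all at passage 20, and 3 for the change between passages. The replicate block gave 2 for B[a]P without Cr(VI), 3 for Cr(VI) under DMSO and 4 for the mean, all at passage 20, and 6 for B[a]P in Cr(VI)-grown cells at passage 25. At passage 20 the samples share only a number, so the block there is no pairing. On passage 20 alone, B[a]P without Cr(VI) gave 2 and the mean Cr(VI) comparison 3. Leaving out 1 library gave 0 to 3 for that mean (3 only without replicate 1 of the Cr(VI)-grown DMSO group) and 0 in the other 17. Between replicate numbers at passage 25 the count of 39 was 36 to 42 over 11 alternatives. No difference changed sign for the genes followed through the alternatives. These were the abundant linker genes for Cr(VI) at passage 20 and its change between passages, and Hist2h3c1 and Hist2h3c2 for B[a]P without Cr(VI) at passage 20. Also followed were the H3 genes called with the block at passage 25 and the called genes with the largest differences between replicate numbers. Other genes named above were not followed. The median over members changed sign under at least 1 alternative in 11 of 19 comparisons. For recovered against control-grown cells with DMSO it kept its sign in 7 of 11 alternatives, and for Cr(VI) under B[a]P at passage 20 in 8 of 11. For treatment and growth at passage 25, leaving out 1 library was done without the block and left unequal replicate numbers in the groups. Those medians also hold the difference between the numbers, so they cannot tell how firm a treatment or growth difference is. Over all alternatives, the mean Cr(VI) difference of Hist1h1c at passage 20 stayed between -1.56 and -1.36, with adjusted p from 1.97e-06 to 0.564.

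Depth limits Hist1h1a, at most 0.457 CPM. The 2 libraries per group, the shared reads of core histones and the replicate numbers that stand apart at passage 25 limit the rest. The block left other calls as they were.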
